A study of Mus musculus with 10 samples.

Results

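The genes described here are 9 transcriptional regulators that mark or shape upper-layer and callosal projection neurons of the cerebral cortex. They were taken by symbol alone: Cux1, Cux2, Pou3f1, Pou3f2, Pou3f3, Rorb, Mef2c, Lmo4 and Cited2. All 9 were among the 16338 genes of the RNA table, and all 9 were tested. The list of chromatin peaks named 5 of them, at 12 of its 6995 peaks.

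The study asked what Rcor2, a corepressor of the CoREST family, does in callosal development, and used cortical midline of C57/Bl6 mouse embryos on embryonic day 14.5. RNA-seq compared 2 conditional knockout libraries (Rcor2f/f/EMX1-iCRE, called cKO) with 2 control libraries (Rcor2f/f), so both genotypes carried the floxed alleles and differed by the Cre transgene. ChIP-seq of wild type tissue had 2 libraries with an Rcor2 antibody, 2 with anti-rabbit IgG as mock precipitation and 2 of total input. Emx1-driven Cre acts in progenitors of the dorsal forebrain and the excitatory neurons they make, so cells that enter the cortex from elsewhere, such as ventrally born interneurons, microglia and vessels, keep Rcor2. The sources used here do not give the number of embryos behind a library. The p-values measure the spread between these libraries only, with variance partly pooled over genes or over peaks.

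Excitatory cortical neurons are born in sequence, deep layers first and upper layers later, and most neurons that project through the corpus callosum settle in the upper layers. Cux and Pou3f factors act from late progenitors to migrating neurons, and Rorb, Mef2c, Lmo4 and Cited2 shape area, layer and dendrite identity. On day 14.5 the upper-layer neurons are still being born and migrate, so the tissue holds progenitors, young migrating neurons and earlier deep-layer neurons together.

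The RNA libraries held 28309925 and 29783893 reads recovered for the cKO and 30270598 and 27674987 for the controls. Rcor2 had 6363 and 6840 normalized counts in cKO libraries, against 7901 and 7257 in controls (log2 change -0.20, SE 0.057, limma adjusted p = 0.0541). The targeted gene was lower in both cKO libraries and did not pass the threshold of 0.05 here. It passed by DESeq2 on recovered reads (adjusted p = 0.0478) and, with limma, without cKO replicate 2 (0.0096), but not by edgeR (0.1003) or with any other library left out. The table does not show which exons its reads covered. Replicate 2 of each genotype had high Xist (20334 normalized counts or more) and replicate 1 of each had Ddx3y (2936 or more), so sex was spread over both genotypes. Collagen and other meningeal markers summed to 8333 and 1777 normalized counts in cKO libraries, against 1404 and 1220 in controls, with cKO replicate 1 far above the rest.

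The promoters of 4 members are shown because the results turn on their genes: Rorb, Mef2c and Pou3f2 had less RNA in cKO tissue, and Pou3f3, the close relative of Pou3f2, did not pass the test. Each line gives up to 250 bases just before the outermost RefSeq start (GRCm38.p6, the same assembly as mm10), 5′ to 3′ on the gene's strand. In Rorb, on the minus strand at chr19:19111197-19111446, capitals mark the 86 bases that lie inside a deposited Rcor2 peak. In Pou3f2 (minus strand, chr4:22488367-22488616), Pou3f3 (plus strand, chr1:42695518-42695767) and Mef2c (plus strand, chr13:83503784-83504016), capitals mark CCAAT, the box of many basal promoters, on either strand; the 1 CCAAT match of Rorb is not marked.
Rorb: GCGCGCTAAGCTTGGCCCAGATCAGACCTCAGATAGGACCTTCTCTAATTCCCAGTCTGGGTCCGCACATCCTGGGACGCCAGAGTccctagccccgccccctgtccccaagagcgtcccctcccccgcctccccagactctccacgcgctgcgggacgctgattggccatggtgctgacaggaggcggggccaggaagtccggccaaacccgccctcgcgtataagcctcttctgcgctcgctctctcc
Pou3f2: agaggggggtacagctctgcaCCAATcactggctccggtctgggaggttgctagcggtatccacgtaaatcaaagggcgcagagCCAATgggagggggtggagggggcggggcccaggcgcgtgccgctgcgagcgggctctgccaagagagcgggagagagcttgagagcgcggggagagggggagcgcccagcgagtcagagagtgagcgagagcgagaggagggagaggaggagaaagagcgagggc
Pou3f3: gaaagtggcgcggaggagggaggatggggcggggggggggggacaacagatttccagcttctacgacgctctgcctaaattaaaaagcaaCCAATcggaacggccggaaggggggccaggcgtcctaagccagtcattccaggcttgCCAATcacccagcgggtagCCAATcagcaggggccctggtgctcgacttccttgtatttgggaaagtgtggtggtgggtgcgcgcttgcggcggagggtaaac
Mef2c: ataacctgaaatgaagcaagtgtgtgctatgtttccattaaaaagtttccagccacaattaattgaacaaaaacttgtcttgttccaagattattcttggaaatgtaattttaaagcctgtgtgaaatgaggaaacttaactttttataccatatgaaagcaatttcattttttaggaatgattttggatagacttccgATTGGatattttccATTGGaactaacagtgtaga
Rorb, Pou3f2 and Pou3f3 have GC-rich promoters (66.0%, 66.8% and 60.8% G or C), whereas the Mef2c stretch is rich in A and T (30.9% G or C), against a median of 52.4% over the 250 bases before each of 32851 listed starts. CCAAT was found on either strand before 5 of the 14 starts of members, and before 33.8% of all starts. TATAAA was found before 3 of the 14, and before 12.4% of all. CAGCACC and GGACAG, stretches of the element bound by Rest, were both present before 1 member start, the Rorb one printed here, and before 1.2% of all starts. These are matches of letters, searched on both strands with any spacing. The RefSeq promoter table matched 8 of the 9 members, all but Pou3f1.

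In cKO midline, 5 of the 9 genes had less RNA and 0 had more (limma-trend, two-sided, adjusted p under 0.05). Over all 14324 tested genes, 8.29% were called lower and 6.16% higher. Pou3f1 stood at 44.0% of its control mean, Rorb at 46.7%, Mef2c at 66.0%, Pou3f2 at 69.1% and Lmo4 at 84.4%. Cux1, Cux2, Pou3f3 and Cited2 did not pass. The median log2 change of the 9 was -0.25, against -0.01 over all tested genes. In bulk tissue, fewer cells of a type and less RNA per cell cannot be told apart.

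**Figure D1:**
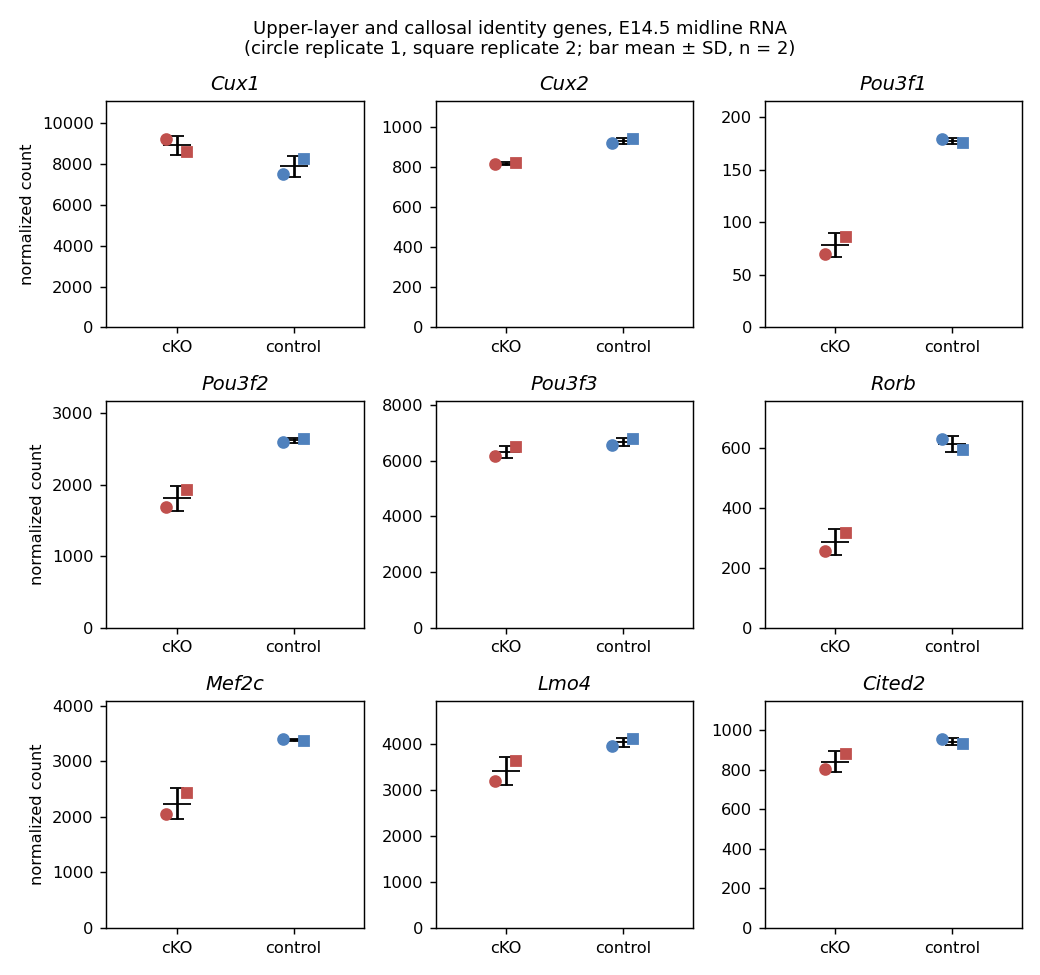
Normalized counts (y axis, from 0) of the 9 genes in each RNA library, a panel per gene, with cKO left of control; points are libraries and bars the mean ± SD (n = 2). Both cKO points lie below both control points in 8 genes, and above them in Cux1.

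Rorb encodes a nuclear receptor that marks layer IV neurons of sensory areas later in life; it lies on chromosome 19, 18930609 to 19111196. It had 256 and 317 normalized counts in cKO libraries, against 632 and 595 in controls (287 ± 43.2 and 613 ± 26.4, SD, n = 2 each). This was a log2 change of -1.10 (SE 0.12, limma adjusted p = 0.00421), to 46.7% of the control mean. Of all tested genes, 57 (0.398%) had a lower log2 change, and 37 (0.258%) a lower one than Pou3f1. Mef2c, a MADS-box factor of young and maturing excitatory neurons on chromosome 13, 83504017 to 83667079, had 2046 and 2433 normalized counts in cKO libraries, against 3405 and 3377 in controls. It fell by 0.60 (SE 0.077, limma adjusted p = 0.0054). In both genes the groups did not overlap, with cKO below as in 33.3% of all tested genes, and cKO replicate 1 was the lowest of the 4 libraries.

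The 3 class III POU genes overlap in function in the mouse cortex, where they act in the production and migration of upper-layer neurons, and they have no introns. Pou3f1 (chromosome 4, 124657646 to 124660655) had 69.9 and 86.1 normalized counts in cKO libraries, against 179 and 175 in controls, and fell by 1.18 on the log2 scale (SE 0.16, limma adjusted p = 0.00629). Pou3f2 (chromosome 4, 22482095 to 22488366) had 1686 and 1927 in cKO libraries, against 2593 and 2639 in controls, and fell by 0.54 (SE 0.068, limma adjusted p = 0.00539). In both the groups were well apart, and Pou3f1 was the scarcest of the 9 genes, so its counts carry the most counting error. Pou3f3 (chromosome 1, 42695768 to 42700210), the most abundant of the trio, had 6164 and 6473 in cKO libraries, against 6567 and 6784 in controls (log2 change -0.08, SE 0.047, limma adjusted p = 0.292). Its cKO values lay just below its control values, and the gap between the groups was smaller than the spread between the cKO libraries.

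Because these genes have no introns, their gene span gives the transcript length and levels can be set side by side per kilobase. On that scale, Pou3f3 had 1387 and 1457 normalized counts per kb in cKO libraries, against 1478 and 1527 in controls. Pou3f2 had 269 and 307 per kb in cKO libraries, against 413 and 421 in controls. Pou3f1 had 23.2 and 28.6 per kb in cKO libraries, against 59.6 and 58.2 in controls. The order Pou3f3, Pou3f2, Pou3f1 was the same in all 4 libraries, and the neighbours in it stood several times apart. Pou3f3 made up 82.6 and 81.3% of the summed level per kb in cKO libraries, against 75.8 and 76.1% in controls, while Pou3f2 made up 16.01 and 17.1% in cKO libraries, against 21.2 and 21.0% in controls.

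The ratio of one paralog to another within a library shows the unequal change directly. The log2 ratio of Pou3f1 to Pou3f3 differed by -1.10 between cKO and control libraries (SD within groups 0.12), and that of Pou3f2 to Pou3f3 by -0.46 (SD within groups 0.062). That of Pou3f1 to Pou3f2 differed by -0.64 (SD within groups 0.060). All 3 differences exceeded the spread within groups and the groups did not overlap, but the exact two-sided permutation test gave p = 0.333 each, the smallest that 2 libraries against 2 allow.

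**Figure D2:**
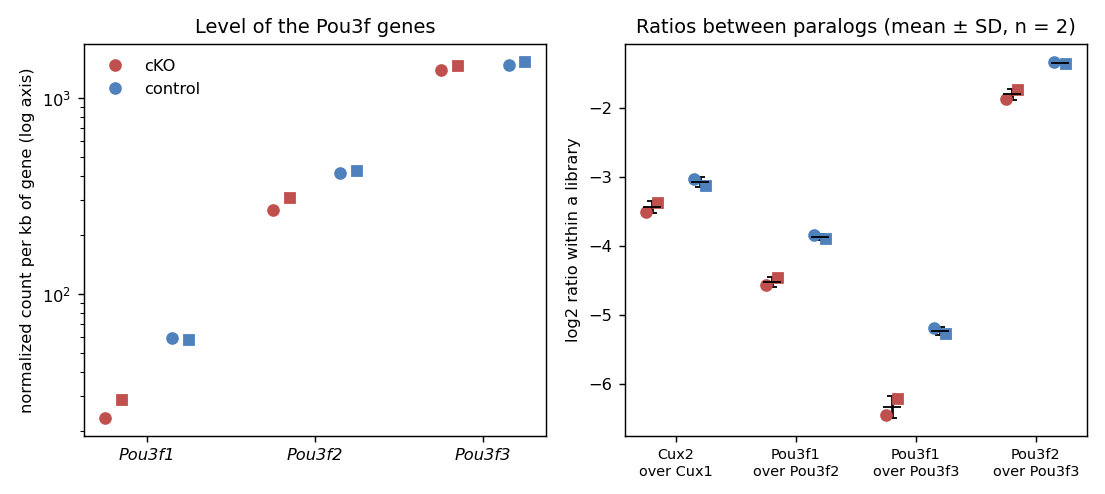
Left, normalized counts per kb of the Pou3f genes in each library (log axis); right, log2 ratios between paralogs within each library (y axis; mean ± SD, n = 2), with cKO left of control. In all 4 ratios both cKO points lie below both control points.

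Cux1 and Cux2 encode CUT homeodomain proteins, standard markers of upper-layer neurons, that act in dendrites and synapses there; Cux1 is also made outside these neurons. Cux1 (chromosome 5, 136248135 to 136567590) had 9220 and 8572 normalized counts in cKO libraries, against 7501 and 8233 in controls (log2 change 0.18, SE 0.059, limma adjusted p = 0.0816). Cux2 (chromosome 5, 121857962 to 122050415) had 812 and 822 in cKO libraries, against 920 and 942 in controls (log2 change -0.19, SE 0.064, limma adjusted p = 0.0882). Neither gene passed. Both cKO libraries lay above both controls in Cux1, as in 27.7% of all tested genes, and below them in Cux2, as in 33.3%. These genes lay on opposite sides of their controls: the log2 ratio of Cux2 to Cux1 differed by -0.36 (SD within groups 0.079, exact permutation p = 0.333, the smallest possible). In the authors' deposited table Cux1 had a log2 fold change of 0.19 (SE 0.066) and an adjusted p of 0.0337, past the threshold, and DESeq2 on recovered reads put it at an adjusted p of 0.0315. The same 5 genes were lower and Cux1 was higher in both of these, which called 6.73% (deposited) and 6.53% (DESeq2) of their genes lower and 5.93% higher each. edgeR on recovered reads called the same 5 lower and 0 higher, against 6.47% lower and 5.69% higher over all genes.

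Lmo4 and Cited2 have no DNA-binding domain of their own and work through partners: Lmo4 binds LIM-domain-binding proteins, and Cited2 binds the acetyltransferases CBP and p300. Lmo4 (chromosome 3, 144188530 to 144205255) had 3195 and 3615 normalized counts in cKO libraries, against 3961 and 4104 in controls, and fell by 0.25 (SE 0.063, limma adjusted p = 0.0365). Cited2 (chromosome 10, 17723228 to 17725674) had 803 and 879 in cKO libraries, against 956 and 929 in controls (log2 change -0.16, SE 0.071, limma adjusted p = 0.162). Lmo4 was the smallest of the 5 falls, and Cited2 pointed the same way without passing.

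Across the 9 genes, both cKO libraries lay below both controls in 8, against 33.3% of all tested genes, and above them in 1, against 27.7%. Replicate 1 of the cKO was below replicate 2 in 8 of 9 genes. This is the library with the high meningeal sum, whose part in the result was not tested. Without it, 4 genes were still called lower (Pou3f1, Pou3f2, Rorb and Mef2c; Lmo4 had a log2 change of -0.16 and limma adjusted p = 0.098), and 0 higher, against 5.83% lower and 3.83% higher over all genes. Without cKO replicate 2, the same 5 were lower and Cux1 was higher (limma adjusted p = 0.0172), against 13.4% lower and 10.7% higher over all genes. Fewer of the 9 genes were called without a control library than without a cKO library, as over all genes. The log2 changes of the 5 genes called lower moved less without a control library than without a cKO library. Mef2c was at -0.598 without control replicate 1 and -0.610 without control replicate 2. It was at -0.479 without cKO replicate 1 and -0.728 without cKO replicate 2. In these 5 genes the SD was larger between the cKO libraries than between the controls. Without control replicate 2 only Rorb passed (limma adjusted p = 0.0447), with 0.0511 for Mef2c, 0.0572 for Pou3f2, 0.0599 for Pou3f1 and 0.211 for Lmo4. In these fits 0.761% (without control replicate 1) and 0.572% (without control replicate 2) of all genes were called lower, and 0.44% and 0.405% higher. With a library left out, the lone library of a genotype is assumed to vary like the others. Quantile normalization kept 4 calls (Lmo4 had limma adjusted p = 0.0631), against 6.25% lower and 5.99% higher over all genes.

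Other upper-layer and callosal genes moved in both directions. Of 21 tested, 9 were lower (42.9%), 3 higher (14.3%) and 9 short of the threshold. Over all tested genes, 8.29% were lower and 6.16% higher. The median of the 21 was -0.19 on the log2 scale. Kitl, the ligand of the Kit receptor, fell by 0.67 (SE 0.061, limma adjusted p = 0.0027), and Epha3, an ephrin receptor of axons, fell by 0.45 (SE 0.069, limma adjusted p = 0.00786). Cpne4 fell by 1.08 (SE 0.24, limma adjusted p = 0.0209), with 164 and 299 normalized counts in cKO libraries, against 483 and 457 in controls. Its size turned on the cKO libraries, at -0.65 without cKO replicate 1 and -1.52 without cKO replicate 2, and DESeq2 did not call it (adjusted p = 0.0983). Dkk3 rose by 0.31 (SE 0.045, limma adjusted p = 0.00697) and Chn2, a Rac GTPase-activating protein, rose by 0.51 (SE 0.085, limma adjusted p = 0.00917). Ptn, Bhlhe22, Btbd3, Unc5d and Rasgrf2 were also called lower, and Tmtc4 higher. Kitl passed with each library left out, whereas Epha3, Dkk3 and Cpne4 did not pass with either control library left out (limma adjusted p of 0.0549 to 0.12), nor Chn2 without control replicate 1 (0.062). Over the list, 2 were lower without control replicate 1 or 2, and 5 without cKO replicate 1.

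**Figure D3:**
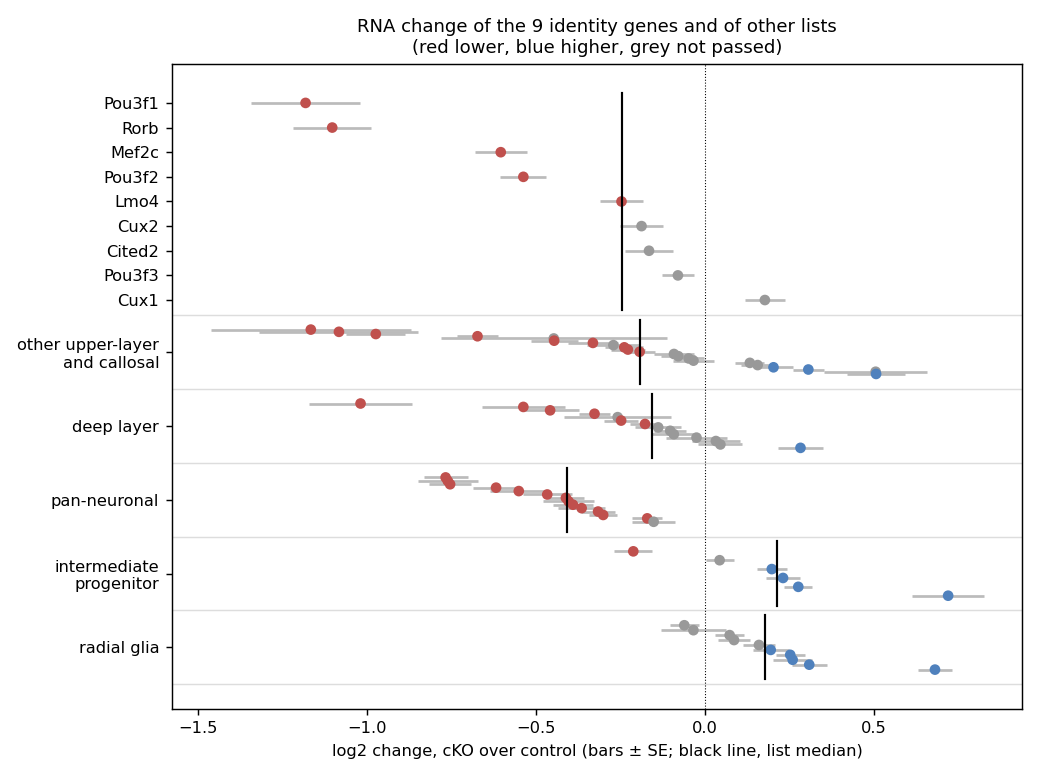
Log2 change of each tested gene, cKO over control (x axis; bars ± SE), by gene list (rows); black lines are list medians, and colours mark genes called lower (red), higher (blue) or not passed (grey). The 9 genes lie below 0 except Cux1, the other upper-layer genes lie on both sides, and all pan-neuronal genes lie below 0.

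Some relatives and partners of the 9 genes passed, where 8.29% of all tested genes were lower and 6.16% higher. Of 9 relatives tested, 3 fell (33.3%) and 1 rose (11.1%), with a median log2 change of -0.02. Lmo1 fell by 0.54 (SE 0.11, limma adjusted p = 0.0169), Lmo3 by 0.35 (SE 0.059, limma adjusted p = 0.0094) and Mef2a by 0.23 (SE 0.050, limma adjusted p = 0.0204). Of 8 cofactors, 2 fell: Ldb2, a LIM-domain-binding protein and partner of Lmo4, by 1.02 (SE 0.15, limma adjusted p = 0.00729), and Hdac5, a class IIa histone deacetylase that binds Mef2 proteins, by 0.23 (SE 0.055, limma adjusted p = 0.029). The other 6 cofactors, among them Ldb1, Ep300 and Crebbp, did not pass. With either control library left out, Lmo1, Lmo3, Mef2a, Ldb2 and Hdac5 did not (limma adjusted p of 0.0599 to 0.164), nor did Hdac5 without cKO replicate 1 (0.0805). Lmo1 was at -0.35 without cKO replicate 1. Mef2a was not called by DESeq2 (adjusted p = 0.0501), nor Hdac5 after quantile normalization (limma adjusted p = 0.0507).

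General neuronal genes were lower too. The counts below stand against 8.29% of all tested genes called lower and 6.16% called higher. Among 14 pan-neuronal genes 13 fell, all but Rbfox3 (median -0.41 on the log2 scale), and their summed level was 149869 and 163474 normalized counts in cKO libraries, against 208635 and 209956 in controls. Of 14 deep-layer genes 6 fell and 1 rose (median -0.16). Tbr1 and Bcl11b were among the falls, as was Ldb2, which is also counted among the cofactors above. Of 10 radial glia genes 5 rose and 0 fell (median 0.18), and of 6 intermediate progenitor genes 4 rose and 1 fell (median 0.21). Of 9 interneuron genes, markers of cells born outside the Cre domain, 4 fell (median -0.53). None of 6 Cajal-Retzius, 6 endothelial, 6 microglial or 5 striatal genes passed (medians 0.11, -0.19, -0.12 and 0.03). Of 6 meningeal genes 2 rose (median 1.49), of 6 choroid plexus and hem genes 1 rose (median 0.35), and of 2 red blood cell genes 1 fell (median -1.24). Without cKO replicate 1, the library with the high meningeal sum, 12 pan-neuronal genes were lower, 5 deep-layer genes lower, 3 radial glia and 3 intermediate progenitor genes higher, and the meningeal median was 0.21. The pan-neuronal median was -0.34 without cKO replicate 1 and -0.48 without cKO replicate 2. In the fits without a control library, fewer pan-neuronal genes were called lower. Their median was -0.45 without control replicate 1 and -0.38 without control replicate 2. In each of these fits 1 radial glia gene was higher, 1 interneuron gene was lower, and 0 deep-layer, intermediate progenitor, meningeal or choroid plexus and hem genes passed. The part of these shifts in the falls of the 9 genes was not tested, and the level of each gene relative to the summed counts of the 14 pan-neuronal genes is given next.

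Divided by the summed pan-neuronal level of its own library, the 9 genes went in both directions. This scaling was chosen after seeing the data. Pou3f1 and Rorb stayed lower per pan-neuronal count, with log2 differences of -0.77 (SD within groups 0.090) and -0.69 (SD within groups 0.10). Mef2c and Pou3f2 differed by -0.18 (SD within groups 0.063) and -0.12 (SD within groups 0.034), against -0.60 and -0.54 in the limma fit of normalized counts. Lmo4 was 0.17 higher, Cux2 0.23, Cited2 0.25, Pou3f3 0.34 and Cux1 0.60 higher on the log2 scale, with SDs within groups of 0.025 to 0.13. The summed pan-neuronal level itself had a log2 change of -0.42. A gene with unchanged normalized counts would therefore stand higher on this scale by the size of that change. Of the 9 genes, only Cux1 was higher by more than that. In each gene the groups did not overlap, and the exact permutation p was 0.333, the smallest possible. The share of all genes without overlap on this scale was not computed.

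**Figure D4:**
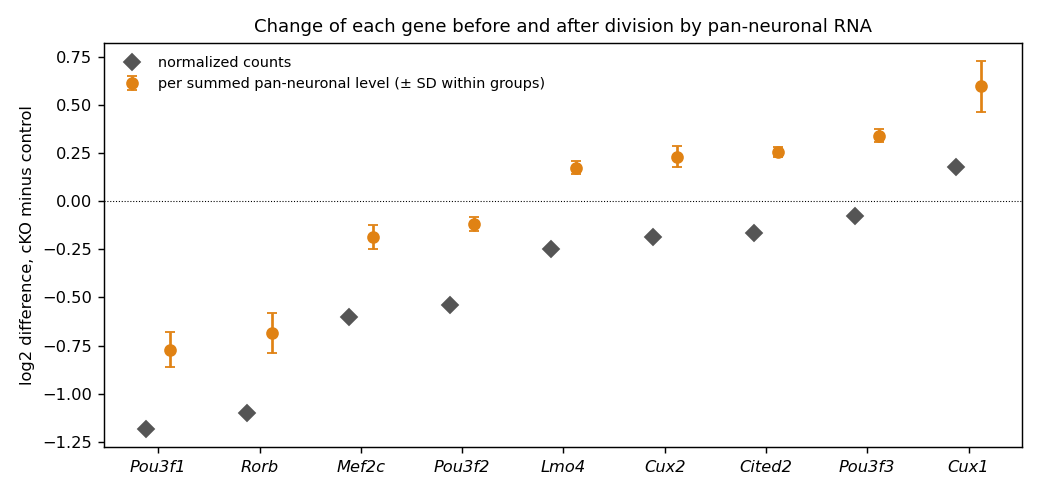
Log2 difference between cKO and control for each gene, from normalized counts (diamonds) and after division by the summed pan-neuronal level of the same library (circles, ± SD within groups). Genes run along the x axis and the y axis is the log2 difference. Pou3f1, Rorb, Mef2c and Pou3f2 stay below 0 on both scales, and Lmo4, Cux2, Cited2 and Pou3f3 change sign.

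For each member, the genes with the nearest values over the 4 libraries were found among 11944 genes. The distance was taken between log2 profiles, each centred on the mean of its 2 control libraries. Pou3f1 lay closest to Jakmip3 (distance 0.102) and Rorb (0.118). This distance largely reflects the size of the change in cKO libraries, and Pou3f1 and Rorb had the 2 strongest falls of the members. Their nearness is therefore no separate finding. Rorb lay closest to Tox (0.108), Pou3f2 to Nrp1 (0.0264), Mef2c to Rapgef4 (0.0205) and Lmo4 to Tbcb (0.0127). Cux1 lay closest to Baz1a, Cux2 to Mn1, Pou3f3 to Tmem263 and Cited2 to Mus81. The distance rests on these 4 libraries only.

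Rcor2 ChIP peaks were named for 5 of the 9 genes: 5 for Cux2, 3 for Cux1, 2 for Mef2c and 1 each for Rorb and Lmo4. Of all tested genes, 19.4% had a peak. The 4 genes without one were short, spanning 2447 bases (Cited2) to 6272 bases (Pou3f2), whereas Cux1, Cux2, Rorb and Mef2c span 163063 bases or more and Lmo4 16726. Of the 5 genes lower in cKO tissue, 3 had a peak (Rorb, Mef2c and Lmo4) and Pou3f1 and Pou3f2 had none.

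By the authors' location classes, 9 of the 12 peaks lay in a gene body, against 36.0% of all peaks, 2 at a promoter (23.1% of all peaks) and 1 was distal (17.4%). The authors' fold over IgG at the 12 peaks had a median of 4.098 and a range of 2.997 to 4.898, against a median of 3.996 and a range of 1.967 to 15.99 over all peaks. The 12 peaks were spread over the list by fold, with 3.82% of all peaks below the lowest of them (in Cux1) and 81.5% below the highest (in Cux2). In each of the 12, both Rcor2 libraries were higher than both IgG libraries, which is how the peaks were called and no finding.

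Input chromatin gives another comparison. Both Rcor2 libraries were higher than both inputs at 3 of the 12 peaks, against 40.3% of all peaks, and lower at 3, against 9.08%, and the ranges overlapped at 6. Tested against the median peak of each library (limma on log2 heights, centred), 0 of the 12 stood above it, when 6.46% of all peaks did, and 3 below, when 9.58% of all peaks did. These 3 rested on the libraries: 1 was below without Rcor2 replicate 1 (Rorb), 2 without Rcor2 replicate 2, 0 with either input library left out and 0 with heights not centred. Calls at peaks rest mostly on variance pooled over all peaks (prior degrees of freedom 181, residual 2), and little on each peak's own replicates. Heights are whole numbers with no known scaling for depth, and their library medians were 13 and 19 for Rcor2, 4 and 3 for IgG and 13 and 12 for input.

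The Rorb peak, chr19:19111361-19111544, covers the capitals of the Rorb promoter printed above and was 13 and 12 high in Rcor2 libraries, against 3 and 4 in IgG and 24 and 15 in input. It lay below the median peak (centred log2 Rcor2 over input -0.91, SE 0.31, limma adjusted p = 0.0283). The Lmo4 promoter peak, chr3:144201971-144202152, was 10 and 25 high in Rcor2 libraries, against 5 and 4 in IgG and 26 and 29 in input (-1.09, SE 0.27, limma adjusted p = 0.00128). At both promoters the input itself was high, above its library median of 13 or 12.

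The Cux2 gene held 4 peaks inside its span and 1 upstream. At chr5:122031894-122032099 the heights were 14 and 18 in Rcor2 libraries, against 3 and 2 in IgG and 19 and 26 in input (-0.79, SE 0.28, limma adjusted p = 0.0343). A further 3 peaks sat within 4800 bases of each other near the 3′ end of the gene, with 9 and 31, 15 and 26, and 5 and 22 in Rcor2 libraries, against 23 and 16, 19 and 14, and 14 and 14 in input. In all 3, Rcor2 replicate 2 was well above replicate 1, the Rcor2 and input heights overlapped, and none passed. The distal peak had 12 and 17 in Rcor2 libraries, against 5 and 2 in IgG and 11 and 13 in input.

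In Mef2c, both peaks lay deep in the gene body: at chr13:83655297-83655923 the heights were 13 and 22 in Rcor2 libraries, against 4 and 3 in IgG and 10 and 9 in input. At chr13:83660901-83661112 they were 15 and 16 in Rcor2 libraries, against 4 and 3 in IgG and 14 and 8 in input. Both Rcor2 libraries exceeded both inputs at each, yet neither stood above the median peak (limma adjusted p = 0.357 and 0.735). Of the 3 Cux1 peaks, the one at chr5:136404206-136404371 had 10 and 17 in Rcor2 libraries, against 4 and 0 in IgG and 8 and 5 in input. The other Cux1 peaks had 14 and 16, and 11 and 21, in Rcor2 libraries, against 14 and 16, and 10 and 15, in input.

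**Figure D5:**
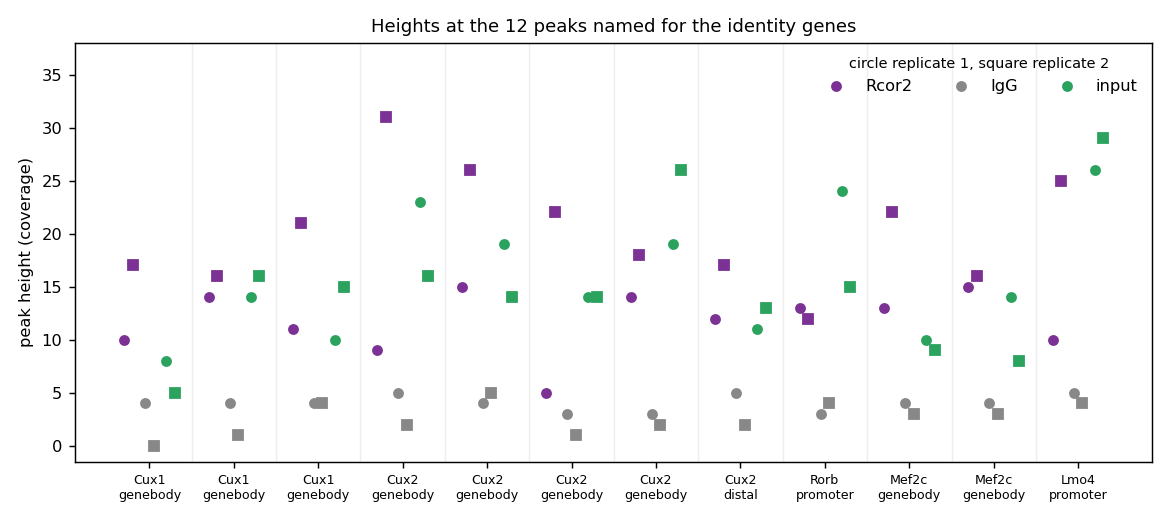
Deposited height (y axis, coverage) of each of the 12 peaks (x axis, with the gene and the authors' class) in the Rcor2, IgG and input libraries, 1 point a library; circles are replicate 1 and squares replicate 2. Rcor2 points lie above IgG at all 12 peaks, and above both inputs at 3.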

How the data were processed

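RNA-seq and ChIP-seq libraries were grouped by their titles, 2 to a group. Per the submitters' processing notes, HISAT2 2.1.0 and Trim Galore were used with mm10, at no stated step; the sources used here do not give the gene counter, strand use, normalization or peak calling. Without stated strand use, reads of Cux1, Cux2, Pou3f3 and Mef2c cannot be told apart from those of the non-coding genes that overlap them in RefSeq. The labels disagree on whether the TruSeq kit was one for total RNA. The members and lists were chosen with earlier results of these data known.

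Per the file headers, the RNA values are normalized counts, a signal that the authors scaled per library; each value divided by its library's step was whole in 100% of cases (tolerance 1e-04), so whole reads were recovered. The authors' deposited table also holds a log2 fold change, a test score and p-values. Per the file headers, the deposited peak list, called once on the Rcor2 libraries against IgG, gives a pileup coverage, a fold enrichment ratio, −log10 p and q (headers spoiled, read by place and range) and the height in each library.

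limma-trend (limma 3.58.1, R 4.3.3) was fitted to log2(normalized count + 1) for 14324 genes; 2014 with a mean under 10 were left out. P-values were two-sided and adjusted by Benjamini-Hochberg over all tested genes, with a threshold of 0.05; residual degrees of freedom were 2 and prior degrees 6.21. Peak heights were fitted as log2(height + 0.5), centred on each library's median, with 2 residual and 181 prior degrees of freedom. Fold changes on the scale of log2(normalized count + 1) understate low genes. Both fits were run on simulated data, with a single fixed dispersion for RNA and with counting error and rises only for peaks. These runs do not show how the fits treat falls in height or replicates as far apart as some here. Alternatives were edgeR 4.0.16 and DESeq2 1.42.0 on recovered reads, TMM, quantile normalization, pseudocounts, filters, the replicate block and leaving out each library. The pairing was checked by the correlation of same-numbered libraries' deviations from their group means, 0.24 in the single RNA pair. By Xist and Ddx3y, same-numbered RNA libraries were of the same sex, so the RNA block is also a block by sex. No label says that a number marks a shared litter, so the block stayed an alternative. Named were all 9 genes, Rcor2 and up to 6 called genes with the smallest adjusted p from each list of upper-layer genes, relatives and cofactors, and also the 2 nearest profiles of each gene among those with a mean of at least 50. Gene spans and promoters are RefSeq's. Some genes that this rule names are counted in their lists but not reported here.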

Additional observations from a re-analysis of the deposited data

How the results depend on the processing

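All 9 genes kept their direction under every alternative scaling, filter, test and left-out library. They did not all keep it per summed pan-neuronal level, an alternative added after seeing the data. On that scale Lmo4 (0.17), Cux2 (0.23), Cited2 (0.25) and Pou3f3 (0.34) were higher in cKO tissue. These rises were smaller than the fall of the summed level itself (log2 change -0.42). The number of the 9 called lower ran from 1 to 5 with a library left out, and the number called higher from 0 to 1; DESeq2 called 1 higher (Cux1), and edgeR did not (adjusted p = 0.0988). Lmo4 was lost under quantile normalization (adjusted p = 0.0631). Of the other upper-layer genes, 2 to 9 were lower and 0 to 5 higher with a library left out, and 5 were lower by DESeq2. The paralog differences, leave-one-out by an alternative added after seeing the data, ran from -0.43 to -0.30 (Cux2 to Cux1), -0.70 to -0.59 (Pou3f1 to Pou3f2), -1.21 to -0.99 (Pou3f1 to Pou3f3) and -0.52 to -0.40 (Pou3f2 to Pou3f3); with a pseudocount of 10, Pou3f1 to Pou3f2 was -0.56. Of the 12 peaks, 0 were below the median peak without centring, and 0 to 2 with a library left out; 0 were above it in each left-out fit. Counting all peaks within 100 kb of a gene gave 22. With the replicate block, 5 of the 9 were lower and 0 higher (8.24% and 6.25% of all genes), no call among the 9 changed, and 2 peaks were below the median peak; same-numbered RNA libraries deviated together (r = 0.24) and ChIP and input libraries did not (-0.02). The cause of these changes was not tested; fits with a library left out hold fewer samples. Depth limits Pou3f1 most, and heights of 0 to 31 limit every peak.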

Other observations

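Within 100 kb of the 9 gene spans lay 22 peaks, 10 of them named for another gene or for none. The tallest was chosen after its values were seen: a peak at chr13:83743403-83743852, 76324 bases past the end of Mef2c, that the authors named for Mir9-2, the gene of a microRNA of neural progenitors and neurons. It was 35 and 44 high in Rcor2 libraries, against 3 and 6 in IgG and 6 and 9 in input. Its fold over IgG of 9.66 was higher than that of 99.1% of peaks, and its centred log2 Rcor2 over input was 2.02 (SE 0.29, limma adjusted p = 4.56e-08). The peak nearest to Pou3f1 lay 12403 bases away and was named for Fhl3, with 9 and 18 in Rcor2 libraries, against 1 and 6 in IgG and 16 and 21 in input. No peak lay within 100 kb of Pou3f2, Pou3f3 or Cited2.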
